A study of Caenorhabditis elegans with 7 samples.

Results

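The genes described here build and serve the nuclear envelope of Caenorhabditis elegans: the nucleoporins (npp genes), the transport receptors (imb, ima and xpo genes), the Ran cycle (ran genes), and 11 genes of the lamina, the inner membrane and the bridge to the cytoskeleton (lmn-1, emr-1, lem-2, lem-3, baf-1, unc-83, unc-84, zyg-12, sun-1, anc-1 and mel-28). They are defined by symbol in the WBcel235 annotation, a rule that reads no measured value, and number 51 of the 27909 genes in the data. With a filter of at least 20 reads per library on average, 49 were tested for total reads. At least 10 labelled reads were also required for labelling, which left 48. The 2 below the read filter were npp-25, a membrane nucleoporin with 108 reads over all libraries, and npp-26 with 0 reads. The lamin-binding membrane protein gene lem-2 passed the read filter but had 0 labelled reads in any library.

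The nuclear pore complex is a channel through the nuclear envelope, built from rings of scaffold nucleoporins that hold a meshwork of proteins rich in phenylalanine and glycine (FG). Import receptors carry cargo inward and let go of it on meeting Ran bound to GTP, while export receptors need Ran-GTP to hold theirs. Beneath the membrane lies the lamina, whose LEM-domain partners bind chromatin through BAF, and pairs of SUN and KASH proteins span both membranes to position nuclei, including those that migrate in the worm hypodermis.

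Libraries came from 3 samples of strain BN1190, in which the hypodermal promoter of dpy-7 drives FLP recombinase (dpy-7p::FLP), and from 4 samples of strain BN1158, the control without FLP. All 7 samples were whole larvae collected at the L4 stage. In both strains the larvae had 28 h at 20 °C on 3 plates per sample and were then given 4-thiouracil, for 17 h in all. In SLAM-ITseq, which marks RNA made in a chosen tissue, incorporated thiouracil is alkylated and read as a T-to-C mismatch (T>C), so a labelled read is one that the deposited files count as a T>C read, and its share of a gene's reads is that gene's labelled fraction. The question put to each gene was therefore whether its labelled fraction was larger with FLP in the hypodermis than in the control, and, beside it, whether its total reads differed between the strains. Whether replicates were separate cultures, or were grown on separate days, is not in the labels, and the p-values may therefore reflect a spread that is partly technical. In whole animals, fewer cells of a type and less RNA per cell cannot be told apart.

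Reads in 3′ UTRs numbered 61924868, 20317812 and 18982440 in hypodermal replicates 1 to 3, and 51976159, 5040693, 8537578 and 20058447 in control replicates 1 to 4. Over all genes, labelled reads made up 3.35% to 3.76% in hypodermal libraries and 2.63% to 4.58% in control libraries. Control replicate 2, the shallowest, held the 4.58%, and the other 3 controls held at most 2.79%. A flow cell is named in the file headers of 5 libraries (hypodermal replicates 2 and 3, control replicates 2 to 4) and not in those of hypodermal replicate 1 and control replicate 1. The 12 hypodermal markers, among them cuticle collagen genes, all had reads, with a summed level of 4694 to 6325 CPM (reads scaled to the TMM-normalised library size, per 1000000) in hypodermal libraries and 5456 to 7710 in control libraries. Their labelled fraction was 2.01% ± 0.137 (SD, n = 3) in hypodermal and 2.24% ± 0.355 (SD, n = 4) in control libraries, with 5 of 12 labelling estimates above 0 and a median log2 odds ratio of -0.15. Body wall muscle markers had 5.89% ± 0.363 labelled reads in hypodermal and 5.27% ± 0.488 in control libraries, and intestine markers 4.99% ± 0.334 in hypodermal and 3.91% ± 1.36 in control libraries, with overlap in both. Labelling estimates were above 0 for 7 of 7 muscle, 8 of 8 intestine and 13 of 16 germline markers. Their median log2 odds ratios were 0.22, 0.55 and 0.86, against 0.54 over all genes. For neuron, pharynx and sperm markers, 5 of 5, 4 of 5 and 4 of 6 were above 0. Reads from FLP itself were not analysed here.

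Neither total reads nor labelled fraction of a pore, envelope or transport gene passed the test between the strains. In total reads, 0 of 49 were called higher and 0 lower by edgeR's quasi-likelihood test at a Benjamini-Hochberg adjusted p under 0.05, where 0% of 12465 genes were called higher and 0.016% lower. DESeq2 also called 0 of 49 in each direction, against 0.0726% of all genes higher and 0.121% lower. At an unadjusted p under 0.05, edgeR had 1 of 49 higher and 0 lower, beside 0.73% and 1.55% of all genes. The estimates lay on both sides of 0, with 25 of 49 above it (51%, all genes 49.4%), a median of 0.00 on the log2 scale and a range of -0.78 to 0.90. The median standard error was 0.33, against 0.49 over all genes tested. These are mid-range to well-read transcripts: the median mean level was 60.1 CPM, against 13.8 for all genes tested.

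In labelled fraction, edgeR's test on labelled and unlabelled reads called 0 of 48 higher and 0 lower, with 0% of 9821 genes called in either direction. At an unadjusted p under 0.05 it had 0 of 48 in either direction, where 2.86% of all genes were higher and 0.407% lower, and limma on log2 odds called 0 as well. Estimates were above 0 for 37 of 48 (77.1%), as for 70% of all genes, and their median log2 odds ratio was 0.50, against 0.54 over all genes. Centring libraries on the pooled odds of all reads gave medians of 0.27 for the members and 0.31 for all genes. Centring on the median gene, which sets the typical gene near 0 by construction, gave -0.10 for the members and -0.06 for all genes. The standard errors were wide, with a median of 1.02 and a range of 0.36 to 1.83, so that differences of several-fold in labelling were not detectable for most members.

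**Figure D1:**
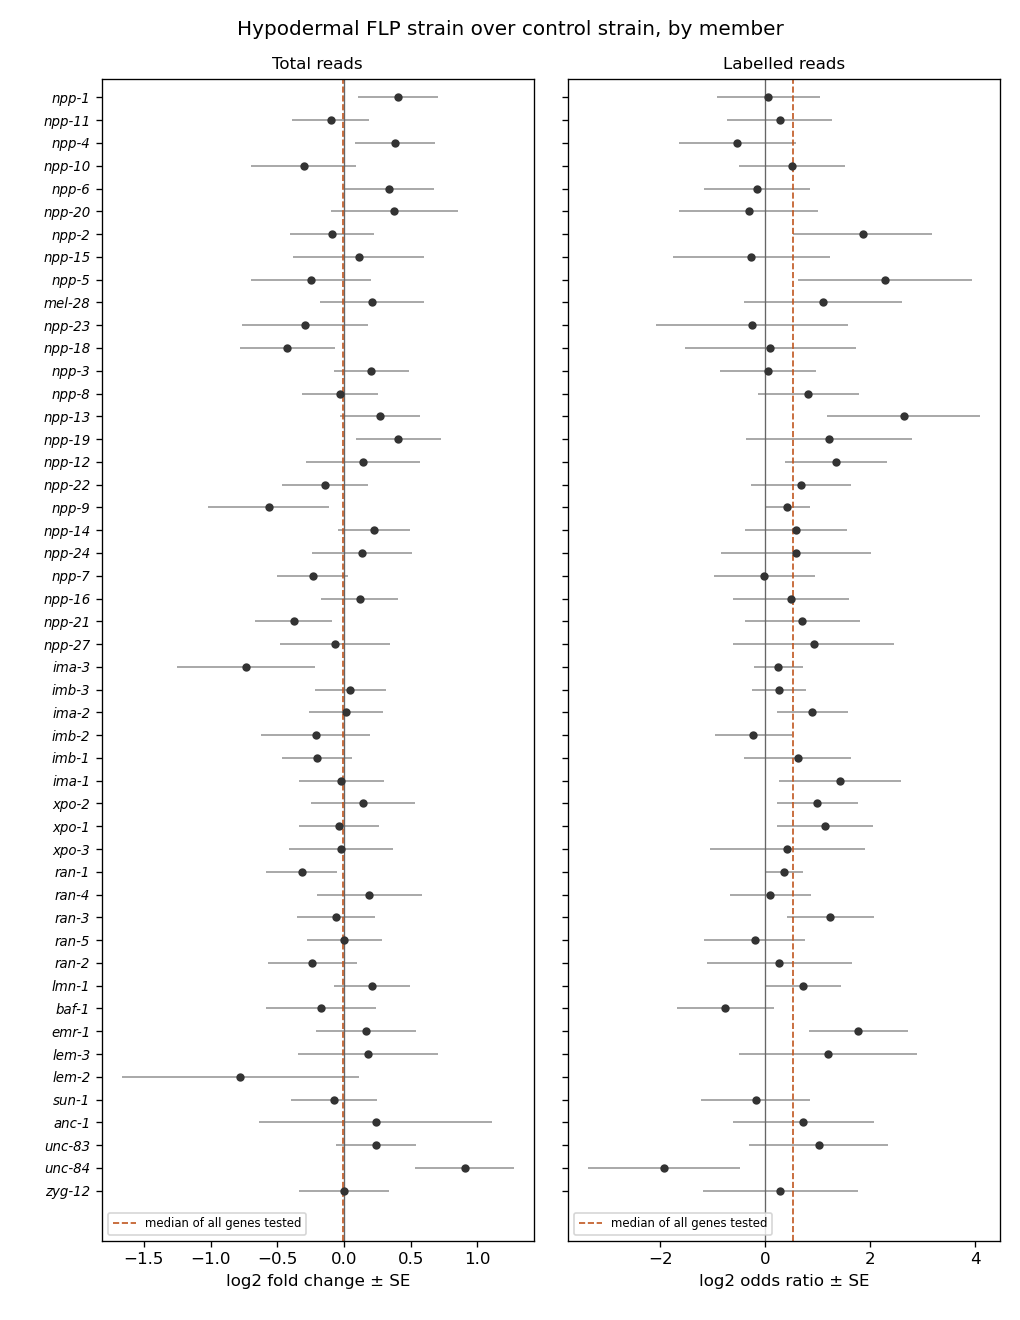
Log2 estimates, hypodermal FLP over control, for total reads and for labelled reads of each gene, with bars of 1 standard error and a dashed line at the median of all genes tested. Total-read estimates run from -0.78 to 0.90 around a median of 0.00, and labelling estimates have a median of 0.50 with wider bars.

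Pooled over all members, labelled reads made up 2.52%, 2.69% and 2.85% in the hypodermal libraries, against 2.02%, 3.11%, 2.12% and 1.87% in control replicates 1 to 4. Every hypodermal library lay above control replicates 1, 3 and 4 and below control replicate 2. The means were 2.69% ± 0.168 (SD, n = 3) in hypodermal and 2.28% ± 0.564 (SD, n = 4) in control libraries, a difference of 0.406 percentage points that is smaller than the spread between controls. Without control replicate 2 the control mean was 2.0% ± 0.128 and the difference 0.683 points, while without control replicate 4 the difference was 0.268 points and without control replicate 1 it was 0.319. Within the flow cell libraries the difference was 0.403 points, and between hypodermal replicate 1 and control replicate 1 it was 0.498 points. As shares of covered T positions, converted Ts were 0.103% ± 0.0118 in hypodermal and 0.0872% ± 0.029 in control libraries. For labelled reads over all genes, the hypodermal mean was 3.56% ± 0.206 (SD, n = 3). The control mean over all genes was 3.16% ± 0.952 (SD, n = 4). The members' difference of 0.406 points was thus close to that of all genes and does not set the members apart.

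The pooled fraction of these genes was lower than that of all genes in each library, although each of their reads covered more T positions, 27.2 on average against 21.8. Taken gene by gene the order was the reverse in each library. The median labelled fraction of the 49 members was 2.61%, against 1.92% for all genes tested, in hypodermal replicate 1. In control replicate 1 it was 1.64%, against 0.432%. The medians of all genes include genes with no labelled read, from 18.7% of them in hypodermal replicate 1 to 61.1% in control replicate 3. The part of such genes in this order was not tested. The members' 3′ UTRs were longer, with a median of 265 bases against 142 for all genes tested, and 43.5% of those bases were T in the median gene, against 41.6%. Over all libraries, the converted Ts listed for these genes came to 0.996 per labelled read, against 0.911 over all genes. A ratio below 1 means that some reads were counted as T>C with no converted T listed, and the cause was not tested. It was lowest in npp-23 (0.23), npp-20 (0.35) and unc-84 (0.51).

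**Figure D2:**
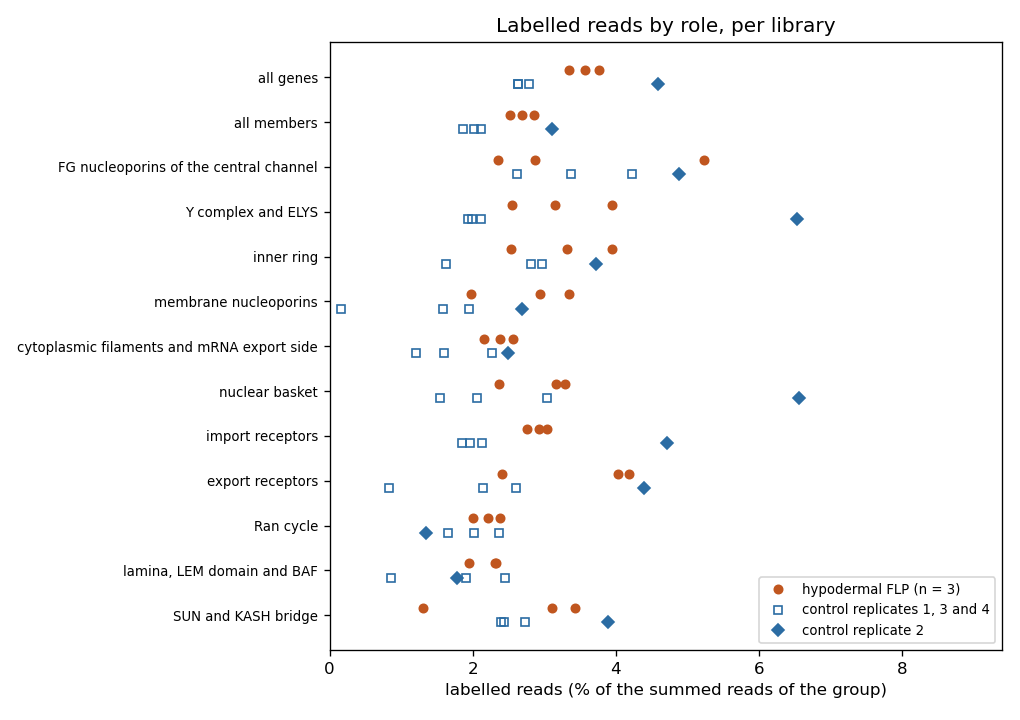
Labelled reads as a percentage of the summed reads of each role group, one point per library, with hypodermal FLP libraries as filled circles, control replicates 1, 3 and 4 as open squares and control replicate 2 as a diamond. Control replicate 2 lies highest or near it in most groups. For all members the 3 hypodermal libraries (2.52% to 2.85%) lie above the other 3 controls, as they do for all genes.

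Among the FG nucleoporins of the central channel, npp-1 (the worm Nup54) had the most reads, with 76.0, 62.9 and 70.7 CPM in hypodermal libraries and 49, 54.6, 36.4 and 71.4 in control libraries. The Nup62 gene npp-11 had 58.1, 43.8 and 74.8 in hypodermal and 63.7, 55.7, 67.2 and 66.0 in control libraries. For npp-4, a Nup58 relative, the values were 48.5, 55.3 and 60.9 in hypodermal and 51.5, 28.0, 42.2 and 46.4 in control libraries. Groups overlapped for all 3, and log2 estimates were 0.40 ± 0.30 (SE) for npp-1, -0.10 ± 0.29 for npp-11 and 0.38 ± 0.30 for npp-4. In labelling, npp-11 stood out within its own group in hypodermal replicate 2, where 113 of 869 reads (13%, 95% Wilson interval 10.9 to 15.4) were labelled, against 3.14% and 5.26% in hypodermal replicates 1 and 3 and 3.23% to 6.67% in control libraries. The log2 odds ratio of npp-11 was 0.27 ± 1.00.

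The Y complex, the outer scaffold ring of the pore, and its chromatin-binding partner ELYS (mel-28) are covered by 9 genes. The most-read was npp-10, which encodes the precursor of Nup98 and Nup96. It had 75.0, 48.7 and 43.2 CPM in hypodermal libraries and 118.8, 40.3, 55.7 and 58.8 in control libraries. Next in reads came npp-6 (Nup160), at 65.1, 70.9 and 74.6 in hypodermal and 48.3, 48.3, 36.3 and 89.3 in control libraries, and npp-20 (Sec13), at 49.1, 39.0 and 29.1 in hypodermal and 43.8, 10.7, 17.9 and 47.0 in control libraries. Groups overlapped for each, with log2 estimates of -0.30 ± 0.39, 0.34 ± 0.34 and 0.38 ± 0.48 for npp-10, npp-6 and npp-20. The other 6 genes, npp-2 (Nup85), npp-5 (Nup107), npp-15 (Nup133), npp-18 (Seh1), npp-23 (Nup43) and mel-28, had estimates between -0.43 and 0.21. Of the 9, 4 estimates were above 0.

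A pair of separate 3′ UTRs of npp-10 on chromosome III carried reads. The one at 6013536 to 6013772 (transcript ZK328.5b.1) took 68.5%, 43.1% and 47.6% of the gene's reads in hypodermal libraries and 67.2%, 34.1%, 58.7% and 49.8% in control libraries. The other, at 6016177 to 6016367 (transcript ZK328.5a.1), took the rest. Which end prevailed differed among libraries of the same strain, and replicate 1 had the largest share of the first in both. Neither of those replicate 1 libraries has a flow cell name in its header, and the part of that batch in the split was not tested.

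As a group, the Y complex genes and mel-28 had 3.15%, 2.55% and 3.94% labelled reads in hypodermal libraries. The controls had 1.93%, 6.54%, 2.12% and 1.99%. All 3 hypodermal values lay above 3 controls, and the second control lay above all of them with only 58 labelled reads of 887. All genes together had that same order. The labelling estimate was above 0 for 5 of 9 genes and the median log2 odds ratio was 0.10. Labelled reads of npp-5 show how thin single genes were: 67 of 1658, 2 of 395 and 9 of 276 reads in hypodermal libraries, against 5 of 2042, 0 of 39, 0 of 152 and 10 of 601 in control libraries, for a log2 odds ratio of 2.28 ± 1.66.

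The inner ring anchors the scaffold to the membrane. The most-read of its 4 genes, npp-3 (Nup205), had 70.7, 83.2 and 83.4 CPM in hypodermal libraries and 69.2, 66.2, 51.9 and 87.0 in control libraries, and npp-8 (Nup155) had 66.3, 65.1 and 73.6 in hypodermal and 87.3, 62.0, 53.0 and 76.5 in control libraries. For npp-13 (Nup93) they were 24.7, 29.9 and 36.6 in hypodermal and 25.6, 25.2, 24.3 and 25.6 in control libraries, and for npp-19 (Nup35) 26.5, 33.5 and 24.2 in hypodermal and 24.2, 15.6, 21.3 and 23.2 in control libraries. Only for npp-19 did all hypodermal libraries lie above all controls, narrowly so, since hypodermal replicate 3 and control replicate 1 both round to 24.2. Its log2 estimate was 0.41 ± 0.32, with an unadjusted p of 0.225 and an adjusted p of 1.00 by edgeR. Over all members, 2 of 49 showed such a separation upward (4.08%) and 0 of 49 downward, where 2.62% and 2.25% of all genes did.

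In labelling, npp-13 had the largest odds ratio of the 48 genes. Its 3′ UTR lies at 2123270 to 2123443 on chromosome I, plus strand. Labelled reads numbered 39 of 1678, 16 of 593 and 20 of 698 in hypodermal libraries, against 3 of 1471, 1 of 108, 0 of 201 and 5 of 525 in control libraries. That is 2.32%, 2.70% and 2.87% in hypodermal libraries, with the lowest Wilson bound at 1.67%. Control libraries had 0.204%, 0.926%, 0% and 0.952%, with upper Wilson bounds of 0.598%, 5.06%, 1.88% and 2.21%. The intervals of control replicates 2, 3 and 4 thus reached above that lowest hypodermal bound. All hypodermal libraries lay above all controls, with means of 2.63% ± 0.277 (SD, n = 3) and 0.521% ± 0.491 (SD, n = 4). The log2 odds ratio was 2.64 ± 1.45 (SE), with an unadjusted p of 0.0694 and an adjusted p of 1 by edgeR, and over the alternatives tried it ran from 2.06 to 3.29 with a smallest adjusted p of 0.69. The authors' deposited table, named for a minimum of 17 T-to-C and a false discovery rate of 10%, lists 198 genes. The data hold 27909 genes, 12294 of them with 0 reads, and 9821 were tested for labelling here. The members had more reads than the typical gene, and the part of read depth in being listed was not tested. Of the 51 members, 48 of them tested for labelling, that table lists 2. There npp-13 has a mean conversion of 0.108% in the hypodermal and 0.0237% in the control strain. Its adjusted p in that table is 0.0739, under the 10% though above the 0.05 used here.

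Complete separation of the libraries in labelling occurred for 4 of 48 members upward (8.33%) and 0 downward, where 5.88% of 9219 genes with reads in every library were separated upward and 0.369% downward. Beside npp-13 these were npp-12, ran-3 and emr-1, described with their roles. None had an unadjusted p under 0.05.

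**Figure D3:**
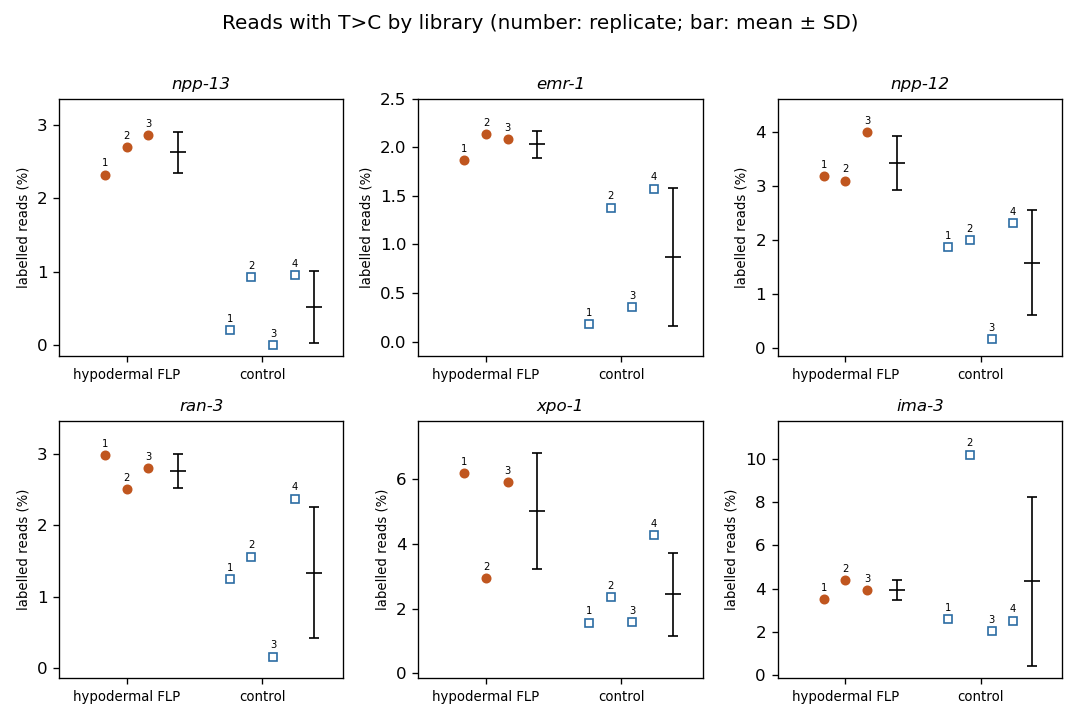
Labelled reads as a percentage of each gene's reads, by library, for 6 genes, with hypodermal FLP left of control, points numbered by replicate and bars for the mean ± SD. For npp-13 the hypodermal libraries lie at 2.32% to 2.87% and the controls at 0% to 0.952%.

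Of the membrane nucleoporins, npp-12 (gp210) had 97.4, 66.7 and 61.5 CPM in hypodermal and 106, 23.3, 75.2 and 67.5 in control libraries, and npp-22 (Ndc1) had 62.0, 73.6 and 74.6 in hypodermal and 73.5, 46.2, 80.5 and 109 in control libraries. These levels overlapped, with log2 estimates of 0.14 ± 0.43 for npp-12 and -0.14 ± 0.32 for npp-22. The labelled fraction of npp-12 was 3.19%, 3.10% and 4.01% in hypodermal libraries and 1.87%, 2.0%, 0.161% and 2.31% in control libraries. The groups did not overlap, but the control values of replicates 2 and 3 rest on 2 and 1 labelled reads. Its log2 odds ratio was 1.35 ± 0.96, with an unadjusted p of 0.161. For npp-22 it was 0.68 ± 0.96, and npp-25 had 30, 0 and 2 reads in hypodermal and 55, 0, 0 and 21 in control libraries, none of them labelled.

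On the cytoplasmic face, npp-9 (Nup358, the large Ran-binding filament protein) had 384, 427 and 424 CPM in hypodermal libraries and 462, 248, 1246 and 482 in control libraries. Control replicate 3 was far above every other library and control replicate 2 below them all. The log2 estimate of npp-9 was -0.57 ± 0.45, and without control replicate 3 it was 0.05. The Nup214 gene npp-14 had 76.7, 65.7 and 69.3 in hypodermal and 52.9, 60.9, 54.7 and 73.1 in control libraries (0.22 ± 0.27), and npp-24 (Nup88) had 27.8, 36.5 and 33.8 in hypodermal and 23.3, 47.6, 16.8 and 31.9 in control libraries (0.14 ± 0.38), both with overlap. The labelled fraction of npp-9 was among the best measured: 2.0%, 1.98% and 2.51% in hypodermal libraries, on at least 8085 reads each, and 0.958%, 2.73%, 2.33% and 1.16% in control libraries. These groups overlapped as well, and its log2 odds ratio was 0.42 ± 0.43.

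Nuclear basket genes, whose products face the chromatin, number 3. The Nup153 gene npp-7 had 58.5, 52.6 and 68.7 CPM in hypodermal and 70.1, 80.9, 64.6 and 66.7 in control libraries, with a log2 estimate of -0.24 ± 0.27. For npp-16 (Nup50) the levels were 58.2, 54.2 and 49.6 in hypodermal and 62.3, 35.4, 49 and 52.0 in control libraries (0.12 ± 0.29), and for npp-21 (TPR, the basket filament) 41.5, 55.5 and 54 in hypodermal and 47.9, 68.3, 74.5 and 70.9 in control libraries (-0.38 ± 0.29). Groups overlapped for all 3. Labelling of npp-21 was low in both strains, at 0.745%, 0.998% and 0.680% in hypodermal and 0.0364%, 1.02%, 0.650% and 0.963% in control libraries. Outside these groups, npp-27 had 28.2, 28.8 and 27.6 CPM in hypodermal and 41.2, 21.4, 13 and 41.7 in control libraries, an estimate of -0.07 ± 0.41 with the hypodermal libraries inside the control range.

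**Figure D4:**
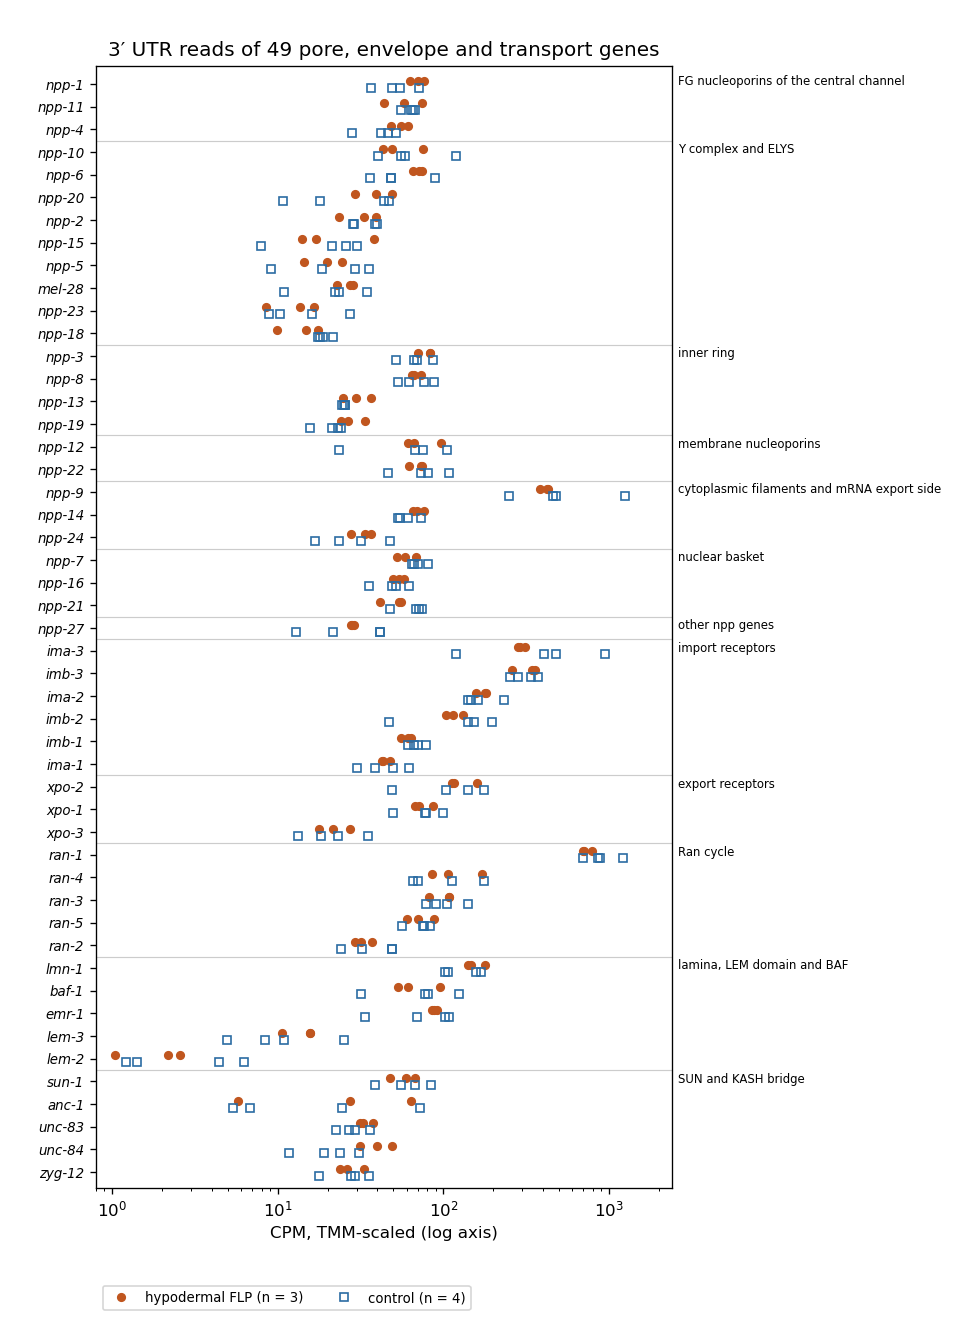
Total reads in CPM of the members in each library on a log axis, grouped by role, with hypodermal FLP and control libraries marked apart. Within most genes the libraries of both strains overlap, and 1 control library, replicate 3, is the highest for npp-9 and ima-3.

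The import receptors include the adaptors ima-1, ima-2 and ima-3 (importin α) and the carriers imb-1 (importin β), imb-2 (transportin) and imb-3. Of these ima-3 had the most reads, 310, 281 and 290 CPM in hypodermal libraries and 481, 118.9, 949 and 407 in control libraries. As for npp-9, control replicate 3 was highest and control replicate 2 lowest, and the hypodermal libraries lay close together between them. The log2 estimate was -0.74 ± 0.51, and -0.19 without control replicate 3. Control replicate 3 was also the highest library for the germline markers, 16 genes such as pgl-1 and gld-1 that all had reads: their summed level was 2238, 2450 and 2469 CPM in hypodermal libraries and 2634, 2341, 3675 and 3148 in control libraries, with 2 of 16 estimates above 0. The 7 body wall muscle markers, such as unc-54, summed to 13642, 15445 and 14398 CPM in hypodermal and 12938, 7327, 20667 and 13946 in control libraries, also highest in control replicate 3 and, unlike the germline markers, lowest in control replicate 2. The part of germline or muscle content in the levels of npp-9 and ima-3 was not tested.

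Steadier levels were seen for imb-3, with 261, 342 and 359 CPM in hypodermal and 282, 254, 371 and 336 in control libraries, and for ima-2, with 157, 178 and 182 in hypodermal and 141, 162, 148 and 231 in control libraries. Their log2 estimates were 0.05 ± 0.27 and 0.02 ± 0.28, both within 1 standard error of 0. The other 3 receptors had estimates between -0.21 and -0.02. Labelled reads of the whole group were 2.76%, 3.04% and 2.93% in hypodermal libraries and 2.13%, 4.71%, 1.97% and 1.85% in control libraries. Here too, as over all genes, every hypodermal library exceeded controls 1, 3 and 4 and none exceeded control 2. For ima-3, 3.50%, 4.40% and 3.91% of reads were labelled in hypodermal libraries and 2.58%, 10.2%, 2.03% and 2.52% in control libraries, and the log2 odds ratio of 0.25 ± 0.47 became 0.75 without control replicate 2, with an adjusted p of 0.685.

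Export receptors bring cargo out of the nucleus. The importin α exporter xpo-2 (CAS) had 113, 160 and 116.2 CPM in hypodermal and 103, 48.7, 175 and 142 in control libraries (log2 estimate 0.14 ± 0.39). The exporter of leucine-rich signals, xpo-1 (CRM1), had 70.9, 67.0 and 86.1 in hypodermal and 77.9, 49.7, 99.8 and 78.8 in control libraries (-0.04 ± 0.30), and the tRNA exporter xpo-3 had 27.2, 17.7 and 21.5 in hypodermal and 35.1, 18.2, 13.3 and 23.1 in control libraries (-0.02 ± 0.39). None separated the strains. In labelling, xpo-1 had 297 of 4814, 39 of 1329 and 97 of 1644 reads in hypodermal libraries, against 70 of 4472, 5 of 213, 13 of 824 and 69 of 1615 in control libraries. Its fraction of 5.00% ± 1.80 (SD, n = 3) in hypodermal and 2.44% ± 1.27 (SD, n = 4) in control libraries overlapped between groups, because hypodermal replicate 2 (2.93%) lay below control replicate 4 (4.27%). The log2 odds ratio of xpo-1 was 1.13 ± 0.92, with an unadjusted p of 0.216. The gene is the other member in the authors' deposited table, with a mean conversion of 0.202% in the hypodermal and 0.0856% in the control strain. Its adjusted p there is 0.077, also under the 10% of that table.

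The GTPase gene ran-1 was the most-read member, with 703, 794 and 697 CPM in hypodermal libraries and 698, 1209, 862 and 882 in control libraries. Control replicate 2 was highest, whereas it was the lowest library for 23 of 49 members, and the log2 estimate was -0.32 ± 0.27. Its labelling had the smallest standard error of the 48: 1.96%, 2.54% and 2.04% in hypodermal and 1.64%, 1.31%, 2.89% and 1.33% in control libraries, for a log2 odds ratio of 0.36 ± 0.36. In the best-measured member, then, the groups overlapped and the estimate was about 1 standard error from 0.

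For ran-3, the chromatin-bound exchange factor (RCC1), CPM values were 81.7, 108 and 109 in hypodermal and 89.9, 105, 78.9 and 142 in control libraries (log2 estimate -0.06 ± 0.29). Its labelled fraction was 2.99%, 2.51% and 2.80% in hypodermal libraries and 1.24%, 1.56%, 0.153% and 2.38% in control libraries. The groups did not overlap, narrowly so between hypodermal replicate 2 and control replicate 4, and the log2 odds ratio was 1.24 ± 0.83 with an unadjusted p of 0.136. Levels of ran-4 (NTF2, the importer of Ran itself) were 170, 107 and 85.8 in hypodermal and 176, 70.2, 65.9 and 112 in control libraries. Those of ran-5 were 88.1, 60.4 and 70.4 in hypodermal and 75.7, 56.4, 83.3 and 75.9 in control libraries, and those of ran-2 (RanGAP) 37.2, 31.9 and 29.4 in hypodermal and 48.9, 24.2, 32.4 and 48.8 in control libraries. All 3 overlapped, with log2 estimates of 0.19 ± 0.39, 0.00 ± 0.28 and -0.24 ± 0.33 for ran-4, ran-5 and ran-2.

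**Figure D5:**
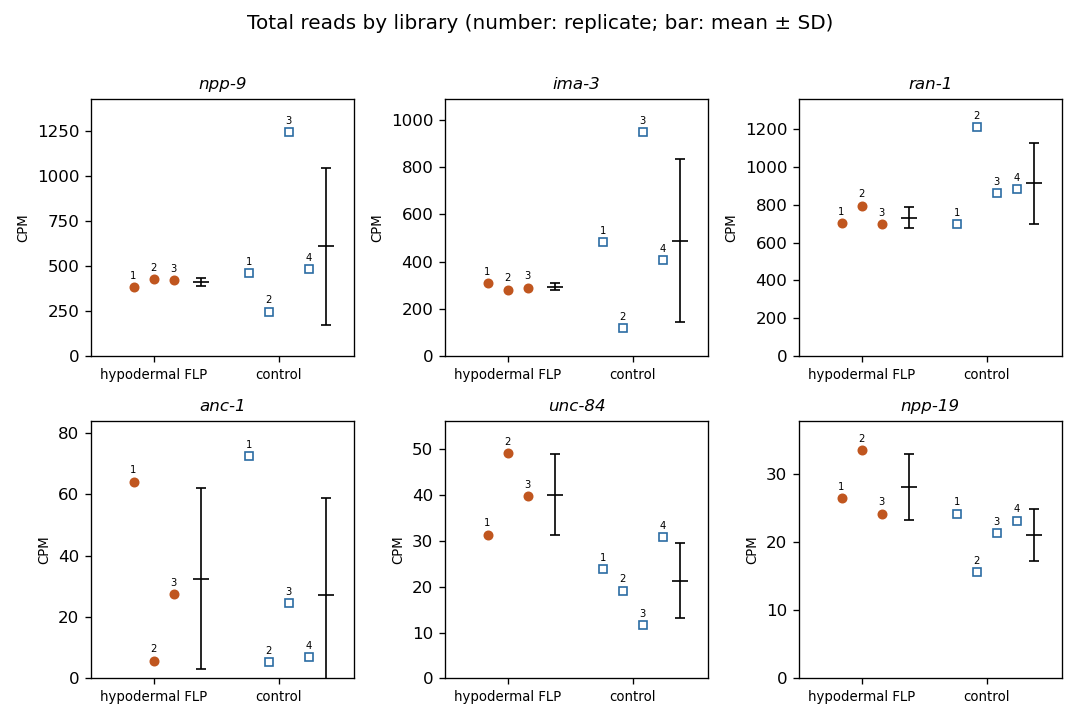
Total reads in CPM by library for 6 genes, hypodermal FLP left of control, numbered by replicate, with the mean and SD as bars. Control replicate 3 is highest for npp-9 (1246) and ima-3 (949), and anc-1 is highest in replicate 1 of both strains.

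In the lamina group, lmn-1, the single lamin of the worm, had 148, 178 and 140 CPM in hypodermal and 170, 103, 107 and 157 in control libraries (log2 estimate 0.21 ± 0.29). The chromatin-bridging baf-1 had 94.9, 60.9 and 53.5 in hypodermal and 124, 31.9, 77.7 and 80.5 in control libraries (-0.17 ± 0.42). Emerin, emr-1, had 87.4, 92.0 and 85.4 in hypodermal and 69.3, 33.8, 103 and 108 in control libraries (0.16 ± 0.37). Each overlapped, and emr-1 varied by less than 10 CPM among hypodermal libraries while its controls spread widely. The LEM-domain nuclease gene lem-3 had 15.8, 10.7 and 15.6 in hypodermal and 25.0, 11, 4.96 and 8.34 in control libraries (0.18 ± 0.53). Lowest was lem-2, at 1.05, 2.17 and 2.57 in hypodermal and 1.22, 4.43, 6.30 and 1.41 in control libraries (-0.78 ± 0.89), and its 0 labelled of 333 reads allow a fraction of up to 0.901%.

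Labelled reads of emr-1 numbered 111 of 5934, 39 of 1826 and 34 of 1629 in hypodermal libraries, against 7 of 3975, 2 of 145, 3 of 849 and 35 of 2223 in control libraries. The hypodermal fractions of 1.87% to 2.14% lay above all controls (0.176%, 1.38%, 0.353% and 1.57%), with means of 2.03% ± 0.141 (SD, n = 3) and 0.871% ± 0.708 (SD, n = 4). The log2 odds ratio was 1.77 ± 0.94, with an unadjusted p of 0.0608, the lowest of the 48 genes, and an adjusted p of 1 by edgeR. Over the alternatives it ran from 1.07 (without control replicate 1) to 2.47 (without control replicate 4), and the smallest adjusted p was 0.613, without control replicate 2. Labelling of baf-1 had the other sign, at 1.58%, 1.16% and 1.86% in hypodermal and 3.67%, 1.46%, 2.34% and 2.55% in control libraries, with overlap and a log2 odds ratio of -0.76 ± 0.92.

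Of the SUN and KASH bridge genes, unc-84, a SUN gene needed for nuclear migration in the hypodermis, was the only member with an unadjusted p under 0.05 in either readout. It had 31.4, 49.2 and 39.8 CPM in hypodermal libraries and 23.8, 19.1, 11.6 and 30.9 in control libraries, a separation of the groups by less than 1 CPM. Means were 40.1 ± 8.91 (SD, n = 3) in hypodermal and 21.4 ± 8.09 (SD, n = 4) in control libraries. The log2 estimate was 0.90 ± 0.37, with an unadjusted p of 0.0321 and an adjusted p of 1.00 by edgeR, and it ran from 0.69 to 1.17 over the alternatives. Most of its reads, 94.3%, fell in the stretch at 13589383 to 13589790 on chromosome X, plus strand, 1 of 3 UTR stretches of the gene. Labelled reads of unc-84 numbered 52 of 2132, 4 of 976 and 3 of 759 in hypodermal libraries, against 41 of 1366, 0 of 82, 13 of 96 and 12 of 633 in control libraries. These overlapped, with a log2 odds ratio of -1.93 ± 1.45, and by converted Ts the estimate was 0.46.

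Its KASH partner unc-83 had 31.4, 32.8 and 37.5 CPM in hypodermal and 29.2, 27.0, 22.4 and 35.9 in control libraries (log2 estimate 0.24 ± 0.30). Germline SUN gene sun-1 had 47.9, 59.8 and 67.5 in hypodermal and 55.5, 38.5, 67.6 and 83.9 in control libraries (-0.07 ± 0.32), and its partner zyg-12, which holds centrosomes to the nucleus, had 23.8, 33.2 and 26.3 in hypodermal and 29.4, 17.7, 27.7 and 35.8 in control libraries (0.00 ± 0.33). Groups overlapped for all 3. The nuclear anchor anc-1, a giant KASH protein, was the most variable member, with 64.1, 5.80 and 27.5 in hypodermal and 72.4, 5.36, 24.6 and 6.83 in control libraries, a 13.5-fold range. Replicate 1 was highest in both strains, and these are the libraries with no flow cell in the header. With header batch as the tested term beside strain, its log2 estimate was 2.28 ± 0.63 with an adjusted p of 0.204 by edgeR, where 0 of 49 members and 0% of all genes were called in either direction. For strain, the estimate of anc-1 was 0.24 ± 0.87, and it was -0.72 without hypodermal replicate 1 and 1.38 without control replicate 1.

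Between libraries, these genes were steadier than the average gene. The median coefficient of variation over all 7 libraries was 24.6% for the 49 genes, against 42.4% for all genes tested. Within strains it was 15.3% in hypodermal and 31.3% in control libraries, against 25.9% and 48.5% for all genes tested. The median level of the 49 genes was also higher, and its part in these differences was not tested. Control replicate 2 was the lowest library for 23 of 49 members (46.9%), against 23.5% of all genes. Control replicate 3 was the lowest for 15 (30.6%), against 30.4%. In control replicate 3, 14 of 49 members had no labelled read, against 61.1% of all genes. Between 1 and 3 members lacked one in each hypodermal library, 5 in control replicate 2, and 1 each in control replicates 1 and 4.

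A list of 37 other genes of nuclear envelope and transport, including mRNA export, nuclear migration motors and SUMO genes, was set beside the members. Of 34 tested for reads 0 were called, 20 were above 0 and the median log2 estimate was 0.05. Of 32 tested for labelling 0 were called, 22 were above 0 and the median was 0.49. At an unadjusted p under 0.05, 1 was higher in each readout, klc-2 (a kinesin light chain) in reads and nxf-2 in labelling. The 3 most-read were kdp-1, with 984 to 1255 CPM in hypodermal and 789 to 1107 in control libraries and a log2 estimate of 0.29, smo-1 (SUMO) with 277 to 370 in hypodermal and 176 to 321 in control libraries (0.30), and the SUMO-conjugating ubc-9 with 193 to 230 in hypodermal and 128 to 335 in control libraries (-0.05).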

How the data were processed

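Counts per 3′ UTR entry (reads, reads with T>C, covered Ts and converted Ts) were produced by the authors in slamdunk 0.4.3, as the file headers state, and deposited. The conversion rate in those files is a fraction, deposited by the authors, and the CPM column a score. Libraries were made with a 3′ mRNA kit, per the labels' protocols, and, per the submitters' processing notes, DESeq2 and genome build ce10 were involved in a role not stated. The headers name a WBcel235 annotation. For the T>C threshold per read, no value is given in these sources. The authors' deposited table gives p-values and mean fractions for 198 genes. Its name states a minimum of 17 T-to-C, without saying what is counted, and a false discovery rate of 10%. Its 21 per-library columns were not used.

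Entries were joined to genes by transcript or sequence name, and of overlapping isoform entries the most-read was kept. The remaining entries of a gene were summed. Left out were entries with no gene (0.00444% of reads). Coordinates are given for WBcel235, where 55 of the members' 58 entries had the same stop-codon side as an annotated 3′ UTR. The far ends were not compared. Total reads were tested with edgeR 4.0.16 in R 4.3.3 after TMM scaling, and labelling on pairs of labelled and unlabelled reads with a term per library, both by two-sided quasi-likelihood tests with Benjamini-Hochberg adjustment over all genes tested. DESeq2 1.42.0, limma 3.58.1, other scalings, filters and each library left out served as alternatives. CPM values here use TMM library sizes, standard errors are the estimate over the root of F, and intervals are 95% Wilson intervals, covering counting error only, as does the limit of 3 counts for a 0. Header batch as the tested term, and the difference within the 2 libraries with no flow cell name, were added after seeing the data. The members follow a rule on symbols, but the rule and the gene lists were chosen with earlier results of these data known. Per-library levels are given for the 3 most-read members of each role, all members of roles with 5 or fewer, and any member called. Members below the filter are named with their total reads. Per-library labelling is given for fewer members. These include members with large estimates, low unadjusted p or groups without overlap, so they were not chosen blind to the results. The symbol npp-17, placed in a role list, is not in the annotation used. 3′ end reads were not divided by length, so levels are not compared between genes as molecule numbers.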

Additional observations from a re-analysis of the deposited data

Results flagged for a closer look

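A labelled percentage stood apart from the other 3 controls in 8 of 48 members, and the level in CPM in 0 of 49. Chance flags about 1 in 20 such groups where values are normally spread, which percentages on few labelled reads need not be. The share of all genes flagged in this way was not computed, so no excess in these genes is claimed. In control replicate 2 the labelled percentage was 10.2 for ima-3, 5.51 for imb-3, 12.8 for xpo-3, 12.5 for npp-4, 12.1 for npp-7 and 4.35 for npp-27, each high against the other controls. The same library was high for the Y complex genes with mel-28 (6.54), for the import receptors (4.71), for the npp genes outside the named roles (4.35, which is npp-27 alone) and for all genes (4.58). Most of these rest on few reads, with 42 labelled of 347 for npp-7 and 15 of 120 for npp-4. In control replicate 4, npp-5 had 1.66% labelled reads, 10 of 601. In control replicate 3, npp-23 had 15.0% labelled reads, 20 of 133, although its labelled reads over all libraries carried few converted Ts each. The part of depth or of control replicate 2's overall labelling in these values was not tested.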

How the results depend on the processing

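No member was called in either readout under any alternative run. The smallest adjusted p of a member was 0.993 in total reads and 0.613 in labelling. In total reads 2 genes were called in all, against 24 by DESeq2 and 0 with the replicate block, in the flow cell libraries only and with header batch as a term. With each library left out that count ranged from 0 to 1. In labelling 0 genes were called, and with each library left out 0 to 20, the 20 without control replicate 2 and 1 without control replicate 4. Replicate numbers did not pair the samples throughout, since deviations of same-numbered samples correlated at 0.47, 0.16 and -0.08. Pairs of unlike number ran from -0.34 to 0.26. The 0.47, the highest of all pairs, was between hypodermal replicate 1 and control replicate 1, the libraries with no flow cell name. With the replicate block the members' median log2 estimate was 0.14 in reads and 0.61 in labelling. Otherwise the median in reads ran from -0.10 to 0.09 and in labelling from -0.10 to 0.77. In labelling, centring on pooled odds gave 0.27 for the members and 0.31 for all genes. Centring on the median gene, which applies the same library offsets to every gene, gave -0.10 and -0.06. Single estimates did not all move by the same amount. The sign was kept under every alternative by 20 of 49 members in reads and 18 of 48 in labelling. Labelled reads were fewest in control replicates 2 and 3, where 17 and 26 of 49 members had 3 or fewer. The median member had 165 reads in control replicate 2 and 429 in control replicate 3. Median labelled fractions there were 2.63% and 0.65%. The part of depth in these counts was not tested.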
